A study of Homo sapiens with 6 samples.

Results

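The genes described here are the E2F family of transcription factors, E2F1 to E2F8, with their DNA-binding partner TFDP1 and the pocket protein RB1. These 10 genes were taken by symbol from the 34957 genes that the deposited expression tables hold, and they cover 66 of the 180253 transcript rows. The study asked what A549 cells, a human lung adenocarcinoma line, express when the long non-coding RNA PLANE (MELTF-AS1) is knocked down, an RNA the study examined as a target of E2F1. Of the 6 libraries, 2 came from cells given a negative control siRNA (si-ctrl), 2 from cells given a PLANE siRNA (si-PLANE.1) and 2 from cells given a further siRNA that the labels call siRNA2 (si-PLANE.2). All cells were transfected with a lipid reagent and were collected at 48 h. The line carries no engineered allele, and all 3 groups share the transfection. The labels do not say that the libraries came from separate cultures, so the p-values below measure only the spread between these libraries, which may be technical. PLANE itself was not analysed here, so the depth of its knockdown is not shown.

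E2F proteins bind the promoters of genes for DNA replication and cell cycle entry, mostly as dimers with a DP protein such as TFDP1. RB1 and its relatives hold the E2Fs in check until cyclin-dependent kinases phosphorylate them, which links E2F activity to the passage from G1 into S phase. E2F1, E2F2 and E2F3 are known as activators. E2F4, E2F5 and E2F6 are grouped here as canonical repressors, of which E2F4 and E2F5 act with pocket proteins and E2F6 acts with polycomb proteins. E2F7 and E2F8 are atypical repressors that bind DNA without a DP partner and are themselves E2F targets.

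In the GRCh37 annotation, E2F1 (ENSG00000101412) lies at chr20:32263283-32274191 on the minus strand, E2F2 (ENSG00000007968) at chr1:23832930-23857725 on the minus strand and E2F3 (ENSG00000112242) at chr6:20402110-20493945 on the plus strand. E2F4 lies at chr16:67226058-67232821 (plus), E2F5 at chr8:86089389-86129387 (plus) and E2F6 at chr2:11584501-11606303 (minus). E2F7 lies at chr12:77415028-77459349 (minus), E2F8 at chr11:19245610-19263167 (minus), TFDP1 at chr13:114239036-114295788 (plus) and RB1 at chr13:48877880-49173572 (plus).

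The 3 activator genes shared a sequence feature near their start sites. RefSeq promoter windows (GRCh38.p14, 250 bases before to 50 bases after a start) were searched on both strands. Windows matched 8 of the 10 genes. E2F5 and E2F8 had no entry, and the RB1 window lay 172699 bases inside the gene, so it was not read as the RB1 promoter. In the windows of E2F1, E2F2 and the upstream start of E2F3, TTTCGCGG was followed within 20 bases by TTGGCGC, both being variants of the E2F binding element. These letters were chosen after the sequences had been seen. The stretches from the first to the second match are given 5′ to 3′ on the gene's strand with the matches in capitals, to show how alike the activators are and where they differ.

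E2F1: TTTCGCGGcaaaaaggatTTGGCGC

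E2F2: TTTCGCGGcacgacgtTTGGCGC

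E2F3: TTTCGCGGgaggaccTTGGCGC

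The E2F1 stretch lay at chr20:33686398-33686422 (minus strand), from 37 to 13 bases before the start site, and its matches were 10 bases apart. The E2F2 stretch lay at chr1:23531268-23531290 (minus strand), with 8 bases between the matches. The E2F3 stretch lay at chr6:20401840-20401861 (plus strand), with 7 bases between them, and the start site it precedes is that of transcript E2F3-201. The same pair was found in 4 of 35116 RefSeq windows (0.011%), the fourth being that of SIAH1. Singly, TTGGCGC was found in 3.04% of windows and TTTCGCGG in 0.416%. Of the other members, E2F7 held TTGGCGC on the opposite strand and TFDP1 held TTTCGCGC on the opposite strand, and the windows of E2F4, E2F6 and the downstream start of E2F3 held none of the elements searched (TTGGCGC, TTTCGCGG, TTTCGCGC, TTTGGCGC, TTTCCCGC and TTTGCCGC). TTGGCGC lies within TTTGGCGC, so those matches overlap. A match is a string of letters and not a measured binding site.

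The libraries held between 10572151 and 20778431 expected counts, and the gene totals of the 10 members ran from 113 to 1674, so no member was near the floor of detection in any library. All 7 A549 markers (keratins, EPCAM and the aldo-keto reductase and aldehyde dehydrogenase genes) were detected. KRT19 was lowest, at 0.76 FPKM (fragments per kilobase of transcript, scaled to sequencing depth) in si-ctrl replicate 2. EPCAM was at 18.25 and 15.37 FPKM after si-ctrl and at 2.59 and 2.70 after si-PLANE.2, where 5 of the 7 were measured higher and 2 lower. CDKN2A and CDKN2B, which A549 cells have lost, did not pass 0.44 FPKM, and the leukocyte markers did not pass 0.16 FPKM. The summed level of the fibroblast markers, nearly all of it from a single gene, was 6.73 to 6.79 FPKM after si-ctrl, 11.4 to 13.3 after si-PLANE.1 and 3.33 to 3.96 after si-PLANE.2, and that of 6 proliferation markers was 564 to 568, 410 to 428 and 373 to 386. The si-PLANE.2 libraries stood apart: the median of 32 replication-dependent histone genes, whose mRNAs lack a poly(A) tail, was 64.2 to 136 FPKM in the other 4 libraries and 0.525 and 0.655 FPKM in these. The study's methods name both poly(A) isolation and ribosomal RNA removal without assigning either to a library. The siRNA and the preparation of the si-PLANE.2 libraries therefore cannot be told apart in any si-PLANE.2 value below. In these bulk samples fewer cells of a type and less RNA per cell cannot be told apart either.

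In control cells TFDP1, E2F4 and E2F5 were the most abundant members, RB1 and E2F6 came next, and the activators and atypical repressors were the least abundant. Per length, TFDP1 was measured at 35.7 and 30.9 FPKM in the 2 si-ctrl libraries, E2F4 at 32.3 and 27.3 and E2F5 at 25.2 and 27.6. The ranges of neighbours in this order overlapped, so these 3 genes were not separated by the spread. RB1 (15.6 and 15.6 FPKM) and E2F6 (16.2 and 9.52 FPKM) formed a middle step. E2F3, E2F1, E2F7, E2F8 and E2F2 followed, between 3.58 and 8.48 FPKM, and each overlapped the next. In the order as a whole, the only neighbours whose ranges did not overlap were E2F5 above RB1 and E2F6 above E2F3.

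The order was different in the si-PLANE.2 libraries, where E2F1 came directly after TFDP1 and E2F4. TFDP1 was measured at 48.7 and 48.0 FPKM, E2F4 at 45.5 and 45.3, E2F1 at 20.9 and 21.9 and E2F6 at 21.2 and 21.3, with overlap only between E2F1 and E2F6. E2F5 (11.9 and 9.18) and RB1 (9.62 and 7.57) followed, with overlapping ranges, and E2F8, E2F7 and E2F2 lay together at the bottom between 3.07 and 3.40 FPKM. After si-PLANE.1 the top of the order overlapped as in control cells, with TFDP1, E2F5 and E2F4 between 24.9 and 36.2 FPKM, and E2F1 came below E2F3 and above E2F8 without overlap.

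**Figure D1:**
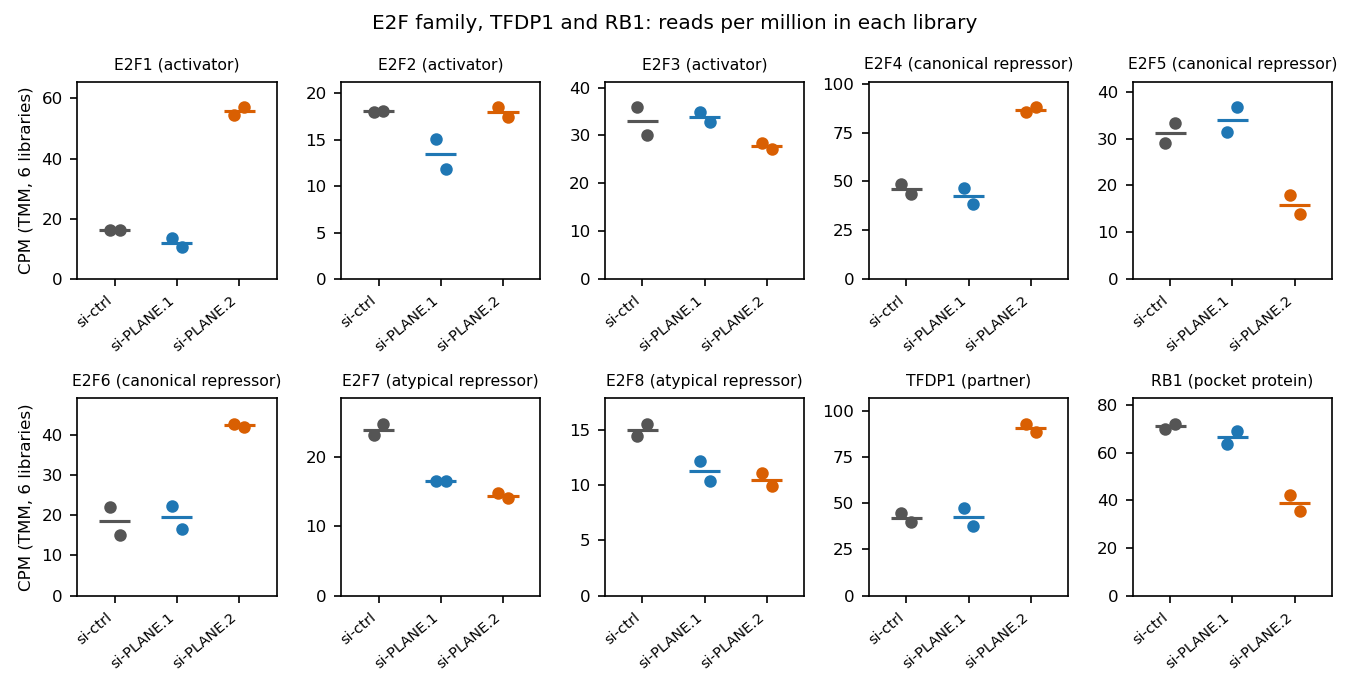
Read counts of each gene scaled to library size (CPM, with TMM factors over the 6 libraries), with 1 point per library, a line at the group mean of 2 libraries and axes that start at 0. E2F1, E2F4, E2F6 and TFDP1 sit higher in both si-PLANE.2 libraries than in the other 4, E2F5 and RB1 sit lower, and E2F7 and E2F8 sit lower in all 4 PLANE siRNA libraries than in the si-ctrl libraries.

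After si-PLANE.1, E2F1, E2F2, E2F7 and E2F8 were measured at 0.689 to 0.749 of control, while E2F3, E2F4, E2F5, E2F6, TFDP1 and RB1 lay between 0.918 and 1.08 of it. None of the 10 genes passed edgeR's quasi-likelihood test with Benjamini-Hochberg adjustment at 0.05, where 5 of 14529 genes passed (0.0344% of all genes). With limma 0 passed, and with DESeq2 0 passed, though DESeq2 gave no adjusted p for E2F1 and E2F8. At an unadjusted p under 0.05, 2 of the 10 were lower, E2F1 and E2F7, against 5.77% of all genes. In CPM (counts scaled to library size) the si-PLANE.1 libraries lay wholly below the si-ctrl libraries for 5 of the 10, against 21.5% of all genes. These were E2F1, E2F2, E2F7, E2F8 and RB1. They lay wholly above for 0, against 21.4%. In FPKM, E2F2 and RB1 overlapped, and E2F5 lay wholly above (28.7 and 32.6 against 25.2 and 27.6). The median log2 fold change of the 10 members was -0.11.

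E2F7, a repressor of E2F target genes, showed the lowest value of the family. It was measured at 23.1 and 24.8 CPM after si-ctrl and at 16.6 and 16.6 CPM after si-PLANE.1, so the libraries did not overlap. The log2 fold change was -0.54 (SE 0.152), with an edgeR adjusted p of 0.359 over all genes. With the replicate number as a block E2F7 passed (edgeR adjusted p = 0.0161), beside 8.43% of all genes. The labels do not say that a number marks a shared batch. E2F1, the activator best known for driving S phase entry, was measured at 16.4 and 16.3 CPM after si-ctrl and 13.5 and 10.8 CPM after si-PLANE.1. Both si-PLANE.1 values were lower, but they were further from each other than the si-ctrl values were, and the log2 fold change of -0.43 (SE 0.187) had an edgeR adjusted p of 0.478.

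E2F2 (18.0 and 18.1 against 15.1 and 11.9 CPM) and E2F8 (14.5 and 15.5 against 12.1 and 10.4 CPM) had log2 fold changes of -0.43 and -0.42, with edgeR adjusted p-values of 0.479 and 0.491. In both genes the si-PLANE.1 libraries were the lower ones without overlap in CPM. The 6 remaining genes had log2 fold changes from -0.12 (E2F4) to 0.12 (E2F5) with unadjusted p-values over 0.4. In CPM their libraries overlapped except for RB1, at 70.1 and 72.3 against 63.9 and 69.2 CPM. The sign of the si-PLANE.1 value flipped with the scaling or the scale for E2F3, E2F4, TFDP1 and RB1, which were all close to 0.

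After si-PLANE.2, E2F1 rose 3.39-fold, E2F6 2.27-fold, TFDP1 2.13-fold and E2F4 1.87-fold, while E2F5, RB1, E2F7 and E2F8 fell to between 0.504 and 0.693 of control. In all, 8 of the 10 genes passed edgeR's test with Benjamini-Hochberg adjustment, 4 higher and 4 lower, in a comparison in which 64.1% of all genes passed. In CPM the libraries did not overlap for 9 of the 10, against 83.1% of all genes. The non-overlap count and the call count are thus close to those of genes in general. The directions did not follow the split into activators and repressors: E2F1 rose with the repressors E2F4 and E2F6, and E2F2 and E2F3 did not pass.

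E2F1 showed the highest fold change of the family. It was measured at 16.4 and 16.3 CPM after si-ctrl and at 54.6 and 57.0 CPM after si-PLANE.2, with no overlap and little spread within either group. The log2 fold change was 1.76 (SE 0.108, edgeR adjusted p = 1.53e-05), above those of 94.9% of all genes tested. TFDP1, the DP partner, rose from 44.6 and 39.8 to 92.9 and 88.6 CPM (log2 fold change 1.09, SE 0.107, edgeR adjusted p = 9.57e-05). The 2 genes whose products form the E2F1 and DP1 dimer were thus both higher in both si-PLANE.2 libraries.

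Among the canonical repressors the directions were mixed. E2F4, the E2F most associated with quiescent cells, rose from 48.5 and 43.8 to 85.5 and 88.0 CPM (log2 fold change 0.90, SE 0.103, edgeR adjusted p = 0.000211). E2F6, which silences genes with polycomb proteins, rose from 22.0 and 15.0 to 42.7 and 41.95 CPM (log2 fold change 1.18, SE 0.177, edgeR adjusted p = 0.000795). E2F5 went the other way, from 29.1 and 33.4 to 17.9 and 13.8 CPM (log2 fold change -0.99, SE 0.163, edgeR adjusted p = 0.00128). In each of these genes the groups were apart by more than the spread of their libraries.

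RB1, the restraint on the activator E2Fs, fell from 70.1 and 72.3 to 42.3 and 35.7 CPM (log2 fold change -0.88, SE 0.116, edgeR adjusted p = 0.000418). The atypical repressor E2F7 fell from 23.1 and 24.8 to 14.8 and 14.02 CPM (log2 fold change -0.75, SE 0.136, edgeR adjusted p = 0.00212). E2F8, its closest relative, fell from 14.5 and 15.5 to 11.04 and 9.87 CPM (log2 fold change -0.53, SE 0.159, edgeR adjusted p = 0.0207). The E2F8 call was the least firm of the 8: it did not pass with DESeq2, nor without si-PLANE.2 replicate 3 (log2 fold change -0.61) or replicate 4 (-0.45).

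The other activators did not pass. E2F2 was measured at 18.0 and 18.1 CPM after si-ctrl and at 18.5 and 17.5 CPM after si-PLANE.2 (log2 fold change -0.015, edgeR adjusted p = 0.929). E2F3 was measured at 35.9 and 30.2 against 28.4 and 27.2 CPM (log2 fold change -0.26, edgeR adjusted p = 0.108), and without si-ctrl replicate 2 it passed at -0.37. In CPM E2F2 overlapped between the groups, and E2F3 was lower without overlap.

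The si-PLANE.2 fold changes of all genes moved with the length and GC content of the gene's most abundant transcript, and so did several members. The median log2 fold change over all genes was 0.15 for transcripts of 2 to 3 kb and -0.52 for those over 4 kb, and it was -0.52 for a GC content under 40% and 0.56 for one over 60%. RB1 (4840 bases, 37.1% GC) and E2F7 (5740 bases, 43.1% GC) belong to the classes that were low throughout. E2F1 (2503 bases, 61.6% GC) and E2F4 (2096 bases, 58.1% GC) belong to classes that were high. E2F6 (3218 bases, 44.3% GC) rose although both of its classes were low. E2F5 (1094 bases, 38.0% GC) fell, with a high length class (0.40) and a low GC class (-0.52). The median was -0.18 for genes like E2F5 in both properties. For si-PLANE.1 the medians of these classes lay between -0.038 and 0.038.

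When the fit took out the median of genes of like length and GC content, a setting chosen after the data had been seen, 5 of the 10 genes passed after si-PLANE.2, against 56.5% of all genes. E2F1 (log2 fold change 1.36), E2F6 (1.55), TFDP1 (1.12) and E2F4 (0.45) stayed higher and E2F5 stayed lower (-0.81). The setting takes both properties from 1 transcript per gene. For E2F5 that transcript held 58.4% and 61.5% of the FPKM after si-ctrl but 32.6% and 4.79% after si-PLANE.2. For E2F6 it held 18.2% to 36.7% across the libraries. RB1 (-0.12, edgeR adjusted p = 0.400), E2F7 (0.19, edgeR adjusted p = 0.261) and E2F8 (-0.16, edgeR adjusted p = 0.407) no longer passed, and E2F3 moved to 0.21 without passing. On a log2(TPM + 1) scale tested with limma, which sets the median of all genes at -0.37, E2F4 (0.44), E2F6 (0.58) and TFDP1 (0.37) did not pass, and E2F1 and the falls of E2F5, E2F7, E2F8 and RB1 did. E2F6 also missed the threshold with limma on log2(FPKM + 0.1), at 0.77.

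**Figure D2:**
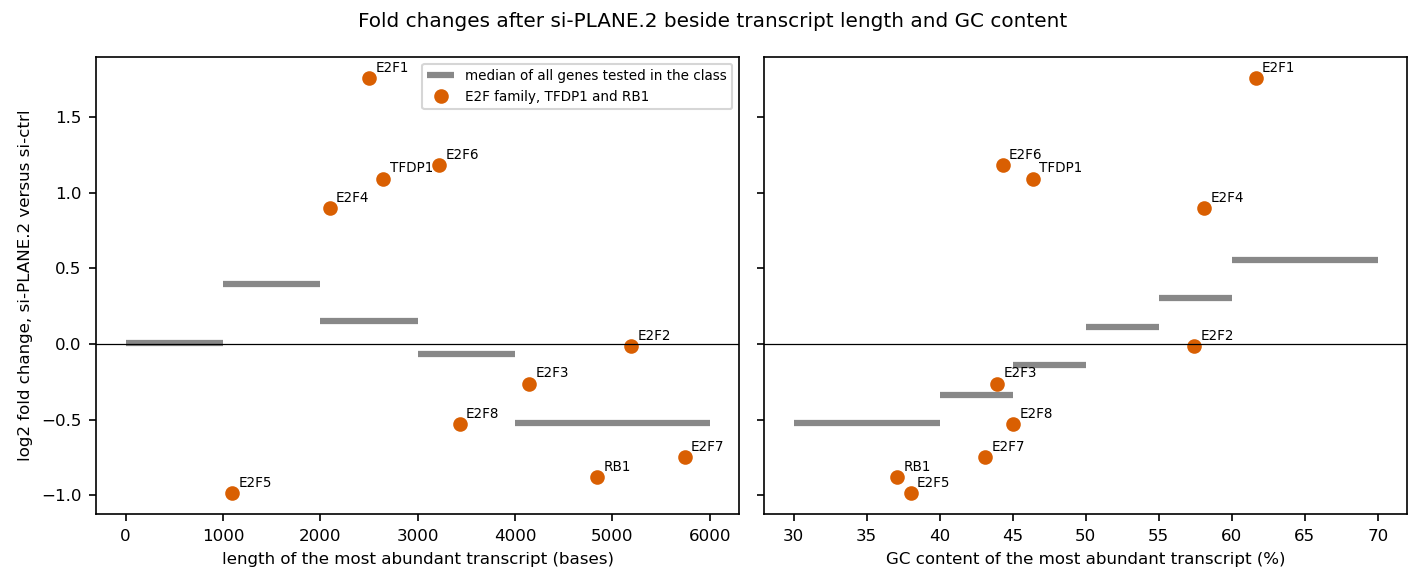
Log2 fold change after si-PLANE.2 of each gene (points) against the length in bases (left) and GC content in percent (right) of its most abundant transcript, with grey bars at the median of all genes tested in a class (the outermost classes are open-ended). E2F1, E2F6 and TFDP1 lie well above the bars of their classes and E2F5 below them, while RB1 and E2F7 lie nearer to the low bars.

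**Figure D3:**
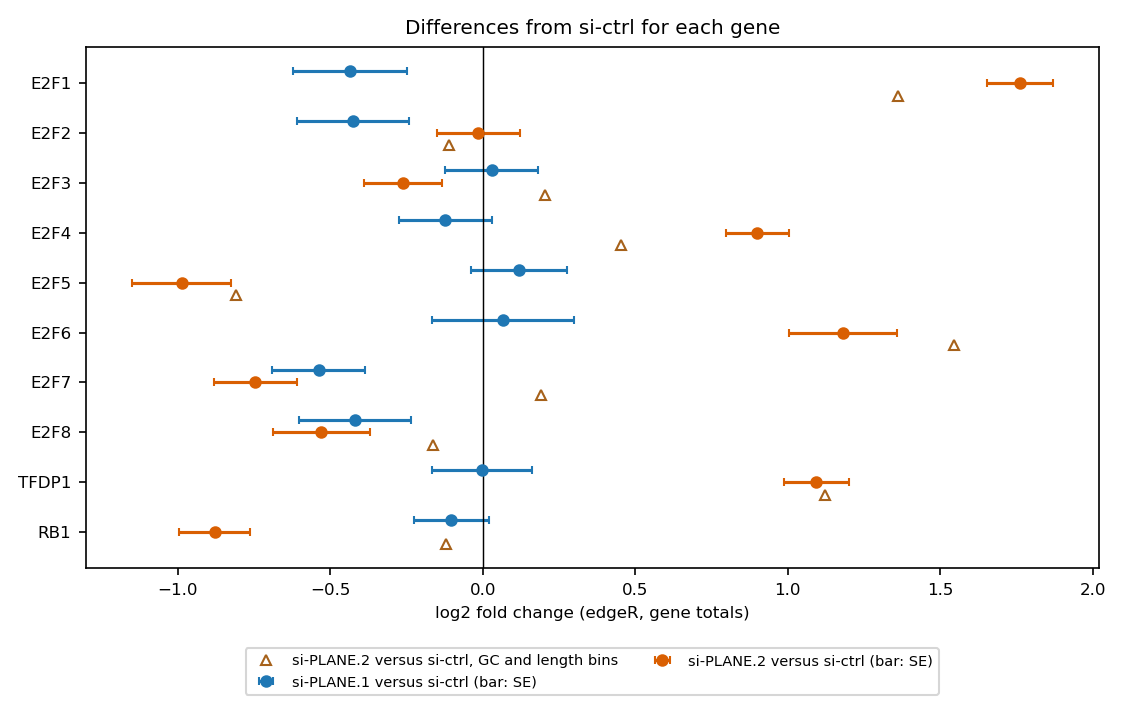
Log2 fold change of each gene after either PLANE siRNA relative to si-ctrl, with bars of 1 standard error, and after si-PLANE.2 with the median of genes of like length and GC content removed (open triangles, no error drawn). The si-PLANE.1 points lie between -0.54 and 0.12 and the si-PLANE.2 points between -0.99 and 1.76, and the triangles of E2F7, E2F8 and RB1 lie close to 0.

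The responses to the siRNAs were compared directly, since both share the si-ctrl libraries. With si-PLANE.2 set against si-PLANE.1, 7 of the 10 genes passed edgeR's test, 5 higher and 2 lower with si-PLANE.2, in a comparison in which 64.5% of all genes passed. E2F1 differed most, at 54.6 and 57.0 CPM with si-PLANE.2 and 13.5 and 10.8 CPM with si-PLANE.1 (log2 difference 2.20, SE 0.147, edgeR adjusted p = 5.89e-06). In the single fits it was above control with si-PLANE.2 and measured below control with si-PLANE.1. E2F6 (1.12), TFDP1 (1.10) and E2F4 (1.03) were higher with si-PLANE.2, and E2F5 (-1.10) and RB1 (-0.77) were lower. E2F6 did not pass with limma on log2(FPKM + 1) (0.59), and on log2(TPM + 1) neither it nor E2F4 (0.38) and TFDP1 (0.32) did.

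E2F2 passed narrowly as higher with si-PLANE.2 (log2 difference 0.41, edgeR adjusted p = 0.0464). It did not pass with DESeq2, nor without si-PLANE.1 replicate 2 (0.26), si-ctrl replicate 1 (0.41), si-PLANE.2 replicate 3 (0.37) or si-PLANE.2 replicate 4 (0.45). E2F7 (-0.20, SE 0.137) and E2F8 (-0.11, SE 0.171) did not pass, so the siRNAs were not shown to differ for the atypical repressors. Taking out length and GC content turned E2F7 to 0.74 with an edgeR adjusted p of 0.00185, and left RB1 at -0.031 without a call.

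Activators and repressors were compared by the median log2(FPKM + 1) of each class in each library, as values with no test. The activators stood at 3.06 and 3.01 after si-ctrl, 2.89 and 2.57 after si-PLANE.1 and 2.82 and 2.77 after si-PLANE.2. The canonical repressors stood at 4.71 and 4.82, then 4.89 and 4.69, then 4.47 and 4.48. The atypical repressors stood at 2.84 and 2.63, then 2.45 and 2.18, then 2.13 and 2.08. In every library the order was canonical repressors, activators, atypical repressors.

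The difference of activators minus canonical repressors was -1.66 and -1.82 after si-ctrl, -2.002 and -2.128 after si-PLANE.1 and -1.65 and -1.71 after si-PLANE.2. It was therefore lowest in the si-PLANE.1 libraries, without overlap, and the si-PLANE.2 libraries overlapped control. The difference of activators minus atypical repressors was 0.22 and 0.38, then 0.44 and 0.39, then 0.69 and 0.69. It was highest in both si-PLANE.2 libraries. E2F1 itself (FPKM 7.32, 7.04, 6.41 and 4.92) was the activator median in every si-ctrl and si-PLANE.1 library. With si-PLANE.2 that place went to E2F3 (FPKM 6.07 and 5.81), while E2F1 stood at 20.86 and 21.87. The canonical median likewise moved among E2F5, E2F4 and E2F6. These medians therefore set different genes against each other, hide the rise of E2F1 and do not show how a class moved as a whole.

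Within the activators, E2F1 made up 33.2% and 39.8% of their summed FPKM after si-ctrl, 32.8% and 32.2% after si-PLANE.1 and 68.8% and 71.1% after si-PLANE.2. The ratio of E2F1 to E2F7 in FPKM was 0.92 and 1.41 after si-ctrl, 1.36 and 1.53 after si-PLANE.1 and 6.14 and 6.94 after si-PLANE.2. The ratio of E2F1 to RB1 was 0.470 and 0.452, then 0.430 and 0.302, then 2.17 and 2.89. E2F1 thus held most of the activator FPKM and exceeded RB1 in FPKM in both si-PLANE.2 libraries and in none of the other 4. These shares and ratios were not adjusted for length and GC content, and with those taken out the falls of E2F7 and RB1 did not pass. In si-ctrl replicate 1, short rows with few reads held 44.5% of E2F2 FPKM and 24.4% of E2F7 FPKM.

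**Figure D4:**
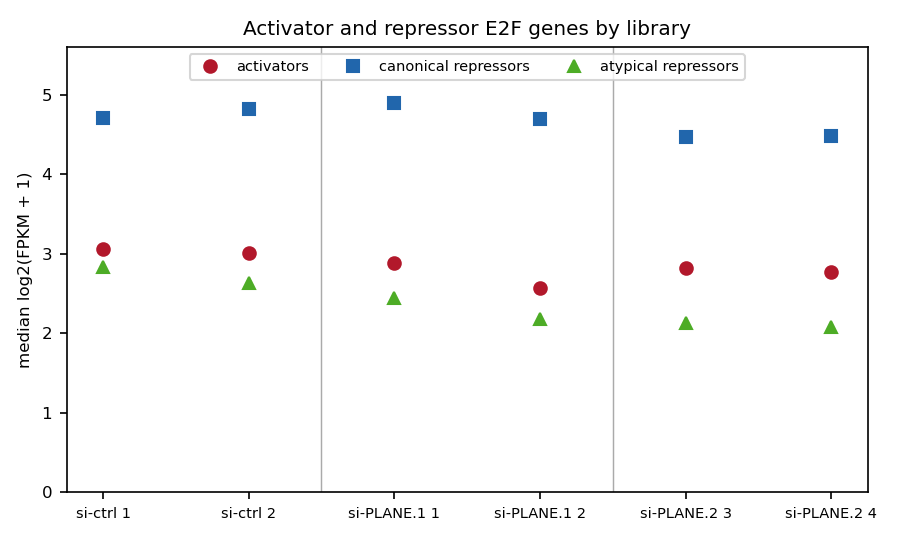
Median log2(FPKM + 1) of the activators (E2F1, E2F2, E2F3), the canonical repressors (E2F4, E2F5, E2F6) and the atypical repressors (E2F7, E2F8) in each library, with an axis that starts at 0 and lines between the groups. The canonical repressors lie highest (4.47 to 4.89) and the atypical repressors lowest (2.08 to 2.84) in each library.

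The transcripts of the family were then compared. Of the 66 rows, 58 were above 0 in some library and 32 made up at least 10% of their gene in some library. None of the 30 member transcripts tested passed after si-PLANE.1 with edgeR, where 0% of all transcripts passed. Of the 30, 2 had an unadjusted p under 0.05, against 4.43% of all transcripts. With DESeq2, 0 of the 25 tested passed. After si-PLANE.2, 9 of 36 passed with edgeR, 6 higher and 3 lower, in a comparison in which 25.6% of all transcripts passed. With edgeR the share of the family is thus near that of transcripts in general. With DESeq2, 9 of the 33 tested were higher and 5 lower. Over all transcripts DESeq2 called 9512 higher and 9416 lower of the 56787 entered. E2F1 is a single row, E2F1-201 (ENST00000343380, 7 exons), with 225, 226, 160, 117, 984 and 907 expected counts in the order si-ctrl, si-PLANE.1 and si-PLANE.2, and its rise (log2 fold change 1.86, edgeR adjusted p = 0.00715) is that of the gene.

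E2F3 has 2 rows with different first exons. E2F3-201 (ENST00000346618) starts at the upstream promoter whose stretch is printed above and has a coding sequence of 1395 bases. E2F3-202 (ENST00000535432) starts further downstream and has a coding sequence of 1002 bases. The nearest RefSeq window, which held no match, belongs to a start site 65 bases before that of E2F3-202. They are known as E2F3a and E2F3b, of which E2F3a is the form usually called the activator.

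E2F3-201 made up 60.4% and 44.5% of E2F3 FPKM after si-ctrl, 50.5% and 67.6% after si-PLANE.1, and 23.2% and 28.1% after si-PLANE.2. Its expected counts were 314 and 202, then 224 and 252, then 132 and 134, although the si-PLANE.2 libraries were the deepest. E2F3-202 had 178 and 218, then 190 and 105, then 379 and 299. The share of E2F3-201 was lower in both si-PLANE.2 libraries than in the other 4, while the log2 fold changes (-1.17 for E2F3-201 and 0.56 for E2F3-202) had edgeR adjusted p-values of 0.0669 and 0.126 and did not pass.

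The transcript makeup of E2F5 also differed. E2F5-204 (ENST00000517476, 1094 bases) held 58.4% and 61.5% of E2F5 FPKM after si-ctrl, 59.2% and 64.9% after si-PLANE.1 and 32.6% and 4.79% after si-PLANE.2. E2F5-202 (ENST00000416274), a longer coding transcript, had 0 and 0 expected counts after si-ctrl, 53.0 and 7.11 after si-PLANE.1 and 83.0 and 64.0 after si-PLANE.2. Against a floor of 3 counts per library, its mean after si-PLANE.2 was at least 17.4-fold higher than control (edgeR adjusted p = 0.0174). After si-PLANE.1 it was at least 22.2-fold higher in replicate 1 and at least 3.13-fold higher in replicate 2, and this transcript did not pass the test (edgeR adjusted p = 0.999). E2F5-203 (ENST00000418930) fell after si-PLANE.2, with 182 and 224 against 110 and 99.6 expected counts (log2 fold change -1.16, edgeR adjusted p = 0.0428). E2F5-205 had 3.71 and 0 expected counts after si-ctrl, 0 and 0 after si-PLANE.1 and 13.9 and 21.2 after si-PLANE.2 and did not pass. How reads were divided between such overlapping rows was decided by the authors' estimator, and a share on few counts is loose.

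E2F7 showed a similar pattern. E2F7-201 (ENST00000322886, 13 exons) held 48.5% and 85.4% of E2F7 FPKM after si-ctrl, 64.7% and 95.3% after si-PLANE.1 and 53.2% and 52.7% after si-PLANE.2, and it fell after si-PLANE.2 (log2 fold change -0.95, edgeR adjusted p = 0.0400). E2F7-204 (ENST00000550669, 2302 bases) had 0 and 5.01 expected counts after si-ctrl, 0 and 0 after si-PLANE.1 and 54.95 and 56.3 after si-PLANE.2 (edgeR adjusted p = 0.0886). Its part of E2F7 FPKM was 37.6% and 47.3% after si-PLANE.2, and at most 3.40% in the other 4 libraries. The wide range of E2F7-201 within si-ctrl rests on short rows with few reads, such as E2F7-203 (570 bases), which held 24.4% of E2F7 FPKM in si-ctrl replicate 1 on 8.45 expected counts, and E2F7-205 (724 bases), which held 29.6% in si-PLANE.1 replicate 1 on 7.33.

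The same effect of short rows set the E2F2 level in FPKM. E2F2-202 (ENST00000487237, 550 bases, no coding sequence annotated) held 44.5% of E2F2 FPKM in si-ctrl replicate 1 on 11.4 expected counts and 0% in si-ctrl replicate 2. E2F2-201 (ENST00000361729) alone was measured at 3.48 and 3.58 FPKM after si-ctrl, against gene totals of 6.27 and 3.58. The spread of E2F2 in FPKM was therefore mostly that of E2F2-202, and its CPM, which counts reads without regard to row length, was the steadier measure.

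In TFDP1, E2F4 and E2F6 a long coding transcript rose after si-PLANE.2, and in each of these genes other rows were measured higher as well. TFDP1-201 (ENST00000375370) had 453, 406, 453, 319, 1295 and 1059 expected counts across the 6 libraries (si-PLANE.2 log2 fold change 1.24, edgeR adjusted p = 0.0129). A shorter TFDP1 row, ENST00000538138, which is not in the annotation used here, went from 3.92% and 7.42% of TFDP1 FPKM after si-ctrl to 18.3% and 20.9% after si-PLANE.2 (log2 fold change 2.64, edgeR adjusted p = 0.0199), and TFDP1-204 (444 bases) went from 17.0% and 21.7% to 3.27% and 3.88%. TFDP1-202 held 37.7% and 29.3% after si-ctrl and 23.6% and 23.7% after si-PLANE.2. E2F4-201 (ENST00000379378) held 59.98% to 85.2% of E2F4 FPKM and had a log2 fold change of 1.06 (edgeR adjusted p = 0.0129). The other E2F4 rows that reached 10%, E2F4-202 (a retained intron) and E2F4-213 (a nonsense-mediated decay row), did so on 35.0 and 28.7 expected counts in si-PLANE.1 replicate 1. Over all transcripts tested, the median si-PLANE.2 log2 fold change was -0.73 for rows of up to 500 bases, the class of TFDP1-204.

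E2F6 was spread over 6 rows of at least 10%. The coding E2F6-202 (ENST00000381525) had 119 and 81.0 expected counts after si-ctrl, 160 and 87.5 after si-PLANE.1 and 366 and 335 after si-PLANE.2 (si-PLANE.2 log2 fold change 1.59, edgeR adjusted p = 0.0292). Of the rows annotated for nonsense-mediated decay, which are taken to yield little protein, E2F6-207 had 62.3 and 58.5 after si-ctrl against 202 and 129 after si-PLANE.2, E2F6-205 had 12.5 and 11.6 against 37.4 and 46.1, and E2F6-203 had 1.92 and 3.92 against 20.75 and 36.9. All 3 were higher at an unadjusted p under 0.05, which 42.5% of all transcripts reached in either direction. None of the 3 passed (edgeR adjusted p = 0.0669, 0.09995 and 0.0596), where 25.6% of all transcripts did. The short coding rows E2F6-212 (log2 fold change -0.45) and E2F6-201 (0.68) did not pass either. The E2F6 gene total therefore includes higher counts on rows with and without a full coding sequence.

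RB1-201 (ENST00000267163, 27 exons) held 97.9% and 97.9% of RB1 FPKM after si-ctrl, all of it and 94.4% after si-PLANE.1 and 77.9% and 84.8% after si-PLANE.2, and it fell after si-PLANE.2 (log2 fold change -0.85, edgeR adjusted p = 0.0252). RB1-205 (ENST00000525036), annotated as a retained intron, held at most 2.12% in the 4 other libraries and 16.1% and 15.2% after si-PLANE.2, on 40.5 and 26.5 expected counts (edgeR adjusted p = 0.0638). RB1-205 thus took a larger part of RB1 in both si-PLANE.2 libraries, on far fewer counts than RB1-201. E2F8-201 and E2F8-202 share 1 coding length of 2601 bases. E2F8-201 held 50.1% and 37.6% of E2F8 FPKM after si-ctrl, 38.3% and 32.6% after si-PLANE.1 and 62.9% and 55.5% after si-PLANE.2, and E2F8-202 held 49.9% and 51.3%, then 61.7% and 55.2%, then 29.9% and 28.7%. Neither row passed. E2F8-203 and E2F8-204 reached 10% on at most 4.01 expected counts.

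**Figure D5:**
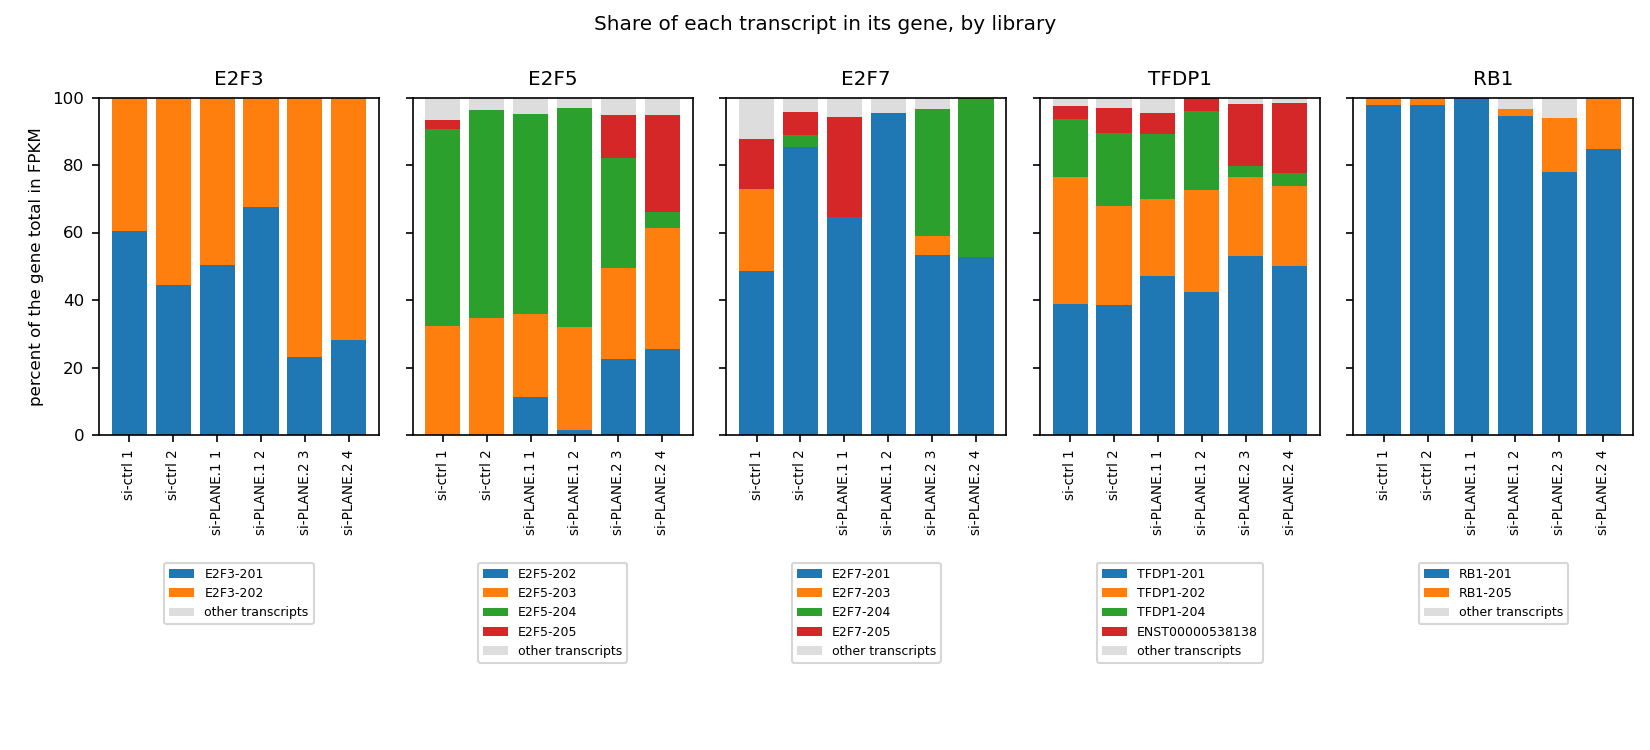
Percent of the gene total in FPKM held by each transcript of E2F3, E2F5, E2F7, TFDP1 and RB1 in each library, as stacked bars from 0 to 100 with transcripts that stayed under 10% in grey. E2F3-201 shrinks to 23.2% and 28.1% after si-PLANE.2, and E2F5-202, E2F7-204, ENST00000538138 and RB1-205 take more of their genes there than in si-ctrl.

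The genes that surround the E2Fs in the pathway were counted by list. Of 28 measured E2F targets (DNA replication, nucleotide synthesis and S phase cyclin genes), 27 were measured lower after si-PLANE.1, with a median log2 fold change of -0.53 beside a median of 0.002 over all genes. None passed edgeR's adjusted test, while 17 of the 28 were lower at an unadjusted p under 0.05, against 5.77% of all genes. With DESeq2 8 of the 28 passed, beside 125 of 14529 genes, and with limma 0 passed. The lowest were the replicative helicase genes MCM2 (-0.95) and MCM5 (-0.88), and the highest were CCNE2 (0.19) and EZH2 (-0.015). All 6 proliferation markers were lower at an unadjusted p under 0.05 as well. Of these, 0 passed edgeR's adjusted test and 3 passed with DESeq2, beside the same 125 of 14529 genes.

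After si-PLANE.2 the E2F targets went the other way. Of the 28, 21 rose and 3 fell by edgeR's adjusted test, with a median log2 fold change of 0.77, in a comparison in which 31.9% of all genes rose and 32.3% fell. The thymidine kinase gene TK1 (2.09) and the CDK-activating phosphatase gene CDC25A (1.67) were highest, and POLA1 (-0.73) and CCNA2 (-0.65) were lowest. With length and GC content taken out, 23 rose and 1 fell, at a median of 0.78, where 4122 of 14166 genes rose and 3875 fell. Without that setting the proliferation markers were split, with 3 higher and 3 lower. With length and GC content taken out, 2 were higher and 2 lower by edgeR's adjusted test, beside the same counts over all genes. TOP2A turned from -0.73 to 0.35. Between the siRNAs, 21 E2F targets were higher and 1 was lower with si-PLANE.2, at a median of 1.28, in a comparison in which 31.1% and 33.4% of all genes were higher and lower.

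The regulators of RB, the cyclins, kinases and inhibitors that set its phosphorylation, were mixed. After si-PLANE.1, 9 of 12 were measured lower, 5 of them at an unadjusted p under 0.05 (5.77% of all genes). Of the 12, 0 passed edgeR's adjusted test and 1 passed with DESeq2, beside 125 of 14529 genes. After si-PLANE.2, 6 rose and 4 fell, where 31.9% of all genes rose and 32.3% fell. With length and GC content taken out, 5 rose and 4 fell, where 4122 of 14166 genes rose and 3875 fell. CDK4 (1.43) and the CDK4 inhibitor CDKN2C (1.06) were highest, and CDK6 (-2.09) and CCNF (-0.58), a cyclin that marks E2F proteins for degradation, were lowest, so the paired kinases CDK4 and CDK6 went in opposite directions.

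The partners and cofactors were split as well, in a comparison in which 64.1% of all genes passed after si-PLANE.2. Of the pocket proteins and partners, RBL2 (-1.24) and TFDP2 (-0.77) fell after si-PLANE.2 and RBL1 (-0.22) did not pass, so TFDP1 rose while its paralogue TFDP2 fell. Of the MuvB and MYB genes, which act with the pocket proteins, MYBL2 rose (0.79) and LIN9 (-0.96) and LIN54 (-0.93) fell. Of the genes that work with E2F6, PCGF6 (1.35), CBX3 (0.71) and L3MBTL2 (0.31) rose and MGA (-1.62) and RNF2 (-1.17) fell. With length and GC content taken out, RBL1 turned to 0.82 and passed (edgeR adjusted p = 0.000577), LIN52 passed as higher (0.63) and L3MBTL2 no longer passed (0.17), while the other 9 calls of these lists kept their direction. After si-PLANE.1, 0 of the 14 tested genes of these 3 lists passed with edgeR (2 were lower at an unadjusted p under 0.05, against 5.77% of all genes, and 0 with DESeq2).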

How the data were processed

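The 6 deposited RNA-seq libraries of A549 cells were read from 2 transcript tables that share the si-ctrl columns. Per the file headers the authors gave expected counts and FPKM per transcript. The submitters' processing notes name Trimmomatic 0.30, HISAT2 2.0.1, HTSeq 0.6.1, DESeq and hg19 without roles, and the estimator of the expected counts and the strand setting are not given in the sources used here. Reads shared by overlapping or antisense genes can therefore not be told apart.

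Expected counts were summed per gene and rounded. Rows without a gene identifier (3.03% to 3.62% of counts) stayed out of the gene totals. Genes or transcripts whose mean FPKM reached 0.5 were tested with edgeR 4.0.16 (quasi-likelihood, TMM, no block) in R 4.3.3, with Benjamini-Hochberg adjustment at 0.05 over all features tested. Alternatives used DESeq2 1.42.0 and limma 3.58.1. All 10 members and their transcripts with at least 10% of the gene in a library were named, and of the other lists at most the 2 highest and 2 lowest genes and those past the test. The members and lists were chosen with earlier results of these data known. Scripts were tested on simulated data. Counting intervals do not cover library preparation. With 2 libraries per group, the spread is estimated from few samples.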

Additional observations from a re-analysis of the deposited data

Results flagged for a closer look

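For 7 genes the responses to the siRNAs differed by a test of the difference itself (si-PLANE.2 minus si-PLANE.1, edgeR with Benjamini-Hochberg adjustment over all genes, 64.5% of which passed). The log2 differences were 2.20 for E2F1, 1.12 for E2F6, 1.10 for TFDP1, 1.03 for E2F4 and 0.41 for E2F2, which were higher with si-PLANE.2, and -1.10 for E2F5 and -0.77 for RB1, which were lower. Each direction was shared by both libraries of either siRNA in CPM. The histone mRNAs and the length and GC medians of all genes moved with the same comparison, and their part in these differences was not tested beyond the length and GC setting. Under that setting E2F1 (1.71), E2F6 (1.50), TFDP1 (1.23), E2F4 (0.53) and E2F5 (-0.78) still passed and E2F2 (0.30) and RB1 (-0.031) did not.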

How the results depend on the processing

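Directions and calls of single genes held in 382 of 440 recomputed values. After si-PLANE.1 the number of genes past the threshold was 5 and moved to 17 with all 6 libraries in 1 fit, 125 with DESeq2, 3 and 1 with limma on log2(FPKM + 0.1) and log2(FPKM + 1), and 1 on log2(TPM + 1), and lay between 1 and 4 without single replicates. Transcripts past the threshold moved from 0 to 397 with DESeq2. With the replicate number as a block, 1225 genes passed and 1 member did, E2F7 at -0.54, as did 17 of the 28 E2F targets, 5 of the 12 regulators of RB and all 6 proliferation markers, beside 8.43% of all genes. Deviations of same-numbered libraries from their group means had a Pearson r of 0.499 over 14440 genes (genes are no replicates), but the labels do not say that a number marks a shared batch, and si-PLANE.2 carries numbers 3 and 4, so no pairing was possible for it. Members past the threshold after si-PLANE.2 were 5 with GC and length bins, beside 56.5% of all genes. On log2(TPM + 1) they were 5, beside 8088 of 14166 genes. The split of all calls on that scale was 2314 higher and 5774 lower in place of 4513 and 4571. Between the siRNAs they were 4 on log2(TPM + 1), beside 8636 of 14437 genes. With a pseudocount of 0.1, activators minus canonical repressors stood at -1.85, -2.23 and -1.82 in si-ctrl, si-PLANE.1 and si-PLANE.2, activators minus atypical repressors at 0.49 and 0.83 in the PLANE siRNA groups, and as TPM at 0.72 in si-PLANE.2.

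Some signs turned. After si-PLANE.1, E2F3 was -0.033 with GC and length bins, E2F4 0.067 on log2(TPM + 1), RB1 0.0 with limma on either FPKM scale and 0.071 on log2(TPM + 1), and TFDP1 0.005 with RLE, DESeq2 and all 6 libraries, 0.029 with upper-quartile scaling, 0.013 with a minimum of 2 FPKM and 0.058 on log2(TPM + 1). Without single replicates E2F3 ranged from -0.091 to 0.165, E2F5 from -0.001 to 0.231, E2F6 from -0.183 to 0.376 and TFDP1 from -0.177 to 0.155. After si-PLANE.2, E2F2 was 0.006 with no filter and ranged from -0.056 to 0.024, and E2F3 and E2F7 were 0.21 and 0.19 with GC and length bins. Between the siRNAs E2F2 was -0.016 and -0.01 with limma on the FPKM scales and -0.21 on log2(TPM + 1), E2F3, E2F7 and E2F8 were 0.20, 0.74 and 0.28 with GC and length bins, and E2F8 ranged from -0.212 to 0.009. A lone library left in a group was assumed to vary like the others. The cause of these moves was not tested, and GC bins were added after the data had been seen.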

Other observations

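The genes whose pattern over the 6 libraries was most like that of E2F1 were looked up among 14439 genes, by the root mean square difference in log2 CPM after centring each gene on its si-ctrl mean. They were ILVBL (0.058), MTFP1 (0.061), THOP1 (0.070), TEDC2 (0.075) and AURKAIP1 (0.077). ILVBL, for example, stood at -0.23 and -0.53 after si-PLANE.1 and 1.64 and 1.78 after si-PLANE.2, beside -0.27 and -0.58, then 1.71 and 1.77, for E2F1. Within the family, TFDP1 (rank 1148), E2F6 (rank 1204) and E2F4 (rank 1585) were nearer to E2F1 than its fellow activators E2F2 (rank 6303) and E2F3 (rank 8232) were, and E2F5 was the farthest (rank 12066). The si-PLANE.2 libraries weigh most in this measure.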
